A study of Homo sapiens with 30 samples.

Results

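The genes described here are 34 members of glycolysis and of the hypoxia response, chosen by symbol from the 60675 gene rows of an RNA-seq table: glucose and lactate transporters, the glycolytic enzymes, enzymes that switch the fate of glucose, HIF1A and its hydroxylases, and other hypoxia targets. All 34 were found, and 33 passed the filter on low counts. The cells were HT29, an established human colorectal adenocarcinoma line, kept for 24 h with vehicle (DMSO, 3 libraries) or with a 70% ethanol extract of a herbal formula. Each formula was given at 500, 100 and 20 µg/mL, with 3 libraries per dose for Soshiho-tang and Yijin-tang, 2 for Okbyeongpung-san and 1 for Soyo-san, 30 libraries in all. The DMSO content of vehicle is uncertain, being 0.1% in the labels but 2% in the design text. The design text also sets lower doses for extracts with a low IC20, whereas the labels give the same 3 doses for all, so the doses are those of the labels. Nothing in the labels ties replicates to separate cultures, and the p-values thus cover the spread between libraries, which may be technical only. Vehicle libraries differed more from each other than Soshiho-tang or Yijin-tang libraries of a same dose did. The p-values of these formulas against vehicle pool these unequal spreads.

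Glycolysis breaks glucose down to pyruvate in the cytosol: hexokinases trap glucose taken up by transporters, phosphofructokinase commits it to the pathway, and the later enzymes yield ATP and pyruvate, which lactate dehydrogenase turns into lactate. Under low oxygen the subunit encoded by HIF1A escapes the prolyl hydroxylases encoded by EGLN1 and EGLN3, and the factor then binds short motifs near many genes of glycolysis, acid balance, blood vessel growth and mitophagy. HIF1A is controlled largely at the level of its protein, which was not measured here. Colorectal tumour cells commonly run glycolysis at a high rate even with oxygen present.

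Library totals lay between 18477023 and 36162253 counts. Of 10 epithelial markers 9 had a mean of at least 1 CPM (counts scaled to a common library size), and their sum was 11170 to 14170 CPM in every library. One marker in each list reached a mean of 1 CPM among 6 fibroblast, 4 endothelial and 5 leukocyte markers, the sums did not exceed 4.12 CPM, and no marker of these lists was at 0 in all libraries. The vehicle libraries stood apart on the second principal component (6.17% of the variance), and their libraries carry a name prefix that no extract library has, so treatment and library series cannot be told apart in comparisons with vehicle. For this reason each 500 µg/mL group is also set against its own formula at 20 µg/mL. Comparisons with vehicle share its 3 libraries, and the libraries of each 500 µg/mL group enter both of its comparisons.

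The members' levels spanned a wide range. Per kilobase of exon in vehicle, GAPDH led with a mean of 1082 CPM, followed by PKM at 335, ALDOA at 301 and ENO1 at 300.4. Exon length here is merged over all annotated transcripts of a gene, so ranks between genes depend on the annotation. Without division by length, ENO1 (mean 1585 CPM) stood above ALDOA (1179 CPM). SLC2A1 had 102, HIF1A 21.4, CA9 17.5 and ALDOC 4.70 CPM per kilobase. SLC2A3, a second glucose transporter, was at 0 in all libraries but 2, with 0.0555 CPM in vehicle replicate 1 and 0.0461 CPM in replicate 2 of Yijin-tang at 100 µg/mL. It was not tested, and its pseudogene rows held 60% to 100% of the counts summed over these loci. BNIP3 is uncertain for the same reason, since its 44 pseudogene rows held a median of 43.2% of the summed counts.

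Soshiho-tang at 500 µg/mL raised the glucose transporter, a hexokinase, the platelet-type phosphofructokinase and most enzymes of lower glycolysis, while ALDOC, PFKL, CA9 and EGLN3 fell. Against vehicle, 15 of the 33 tested members rose and 4 fell (edgeR quasi-likelihood test, Benjamini-Hochberg adjusted p below 0.05). Fitting only these 2 groups gave 8 rises and 4 falls, and the fit without a filter on low counts 9 and 4, so the calls lost were rises. Of all 15882 genes tested 39.2% were called in this comparison, 21% higher and 18.3% lower. Against 20 µg/mL of the same formula, 18 members rose and 6 fell, where 26.8% of all genes were called, 13.3% higher and 13.5% lower. The median log2 fold change of the members was 0.14 against vehicle, beside -0.01 over all genes tested, and 0.15 against 20 µg/mL, beside -0.01. The members held 1.42% to 1.46% of all counts in the 3 libraries at 500 µg/mL and 1.298% to 1.342% in vehicle. The mitochondrially encoded share of counts moved too, at 9.07% to 10.8% against 11.5% to 13.9% in vehicle. Of the counts outside it, the members held 1.59% to 1.61% against 1.47% to 1.56%.

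**Figure D1:**
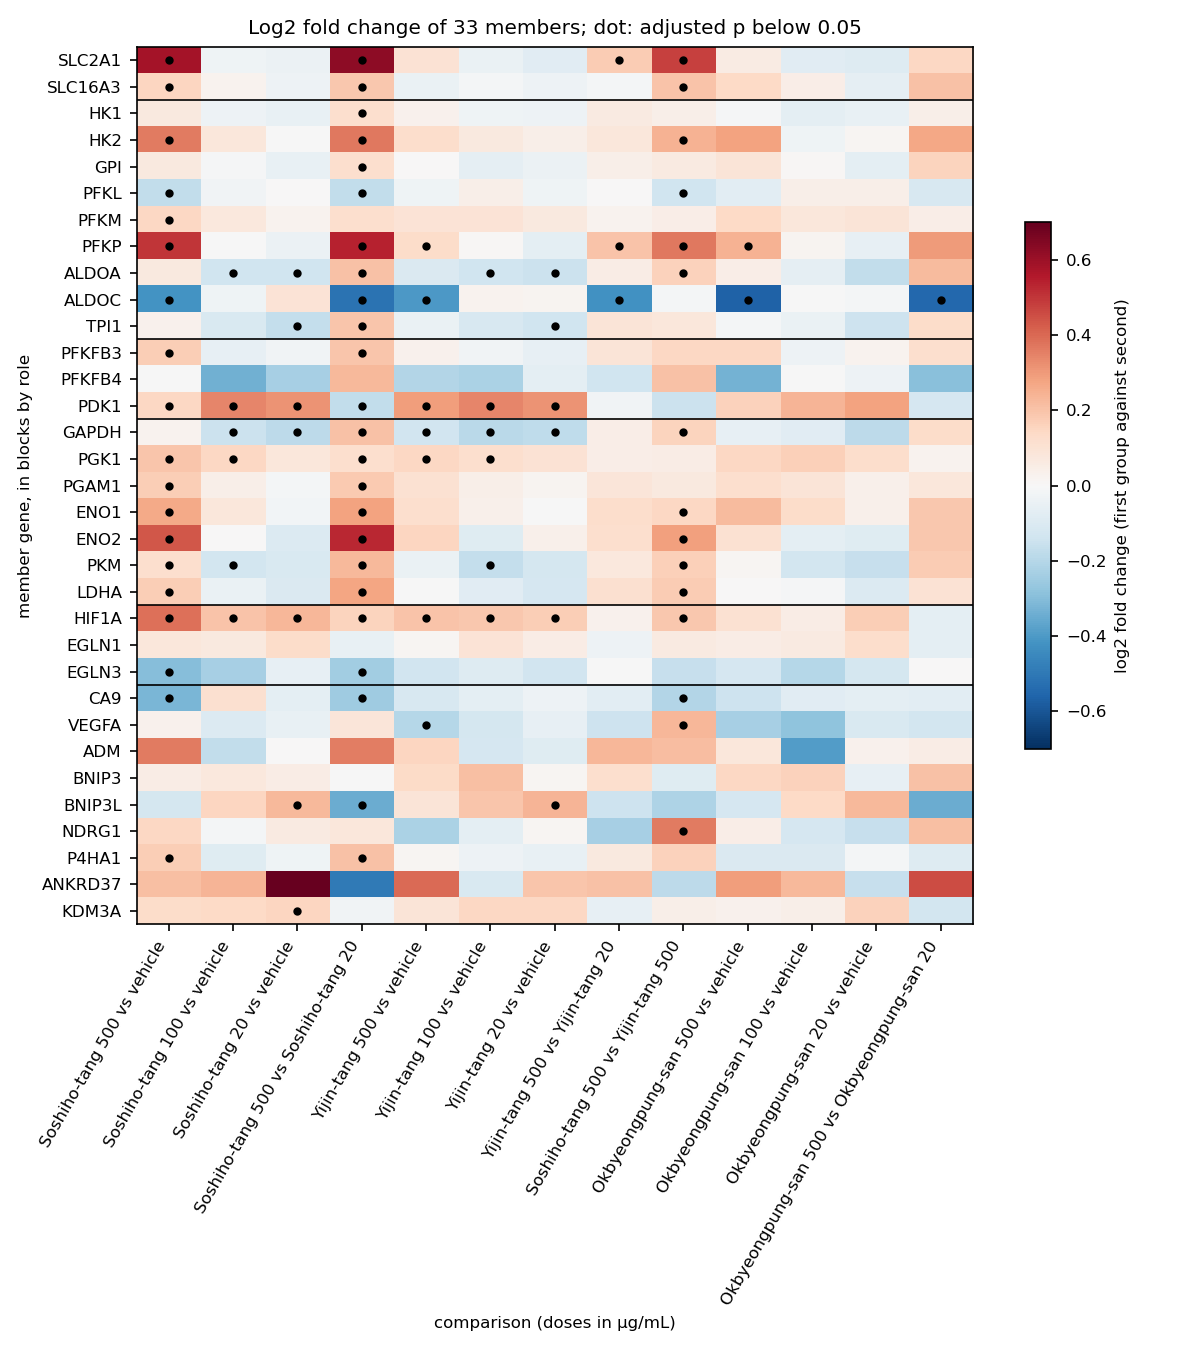
Colour gives the log2 fold change (first group against second, colour scale held between -0.7 and 0.7) of the 33 tested members, in rows by role, for 13 comparisons in columns, and a black dot marks an adjusted p below 0.05. The Soshiho-tang columns at 500 µg/mL hold 19 and 24 dots, and those of Okbyeongpung-san 2 or fewer.

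Among the transporters, SLC2A1 changed most of all members. SLC2A1 encodes GLUT1, the basal glucose carrier of many cells, and lies on chromosome 1 (GRCh38, 42925375 to 42959176, minus strand). Its level was 518.9, 456.9 and 469.5 CPM in vehicle, 712, 728 and 712 CPM with Soshiho-tang at 500 µg/mL, and 471, 462 and 458 CPM at 20 µg/mL. The 3 libraries at 500 µg/mL were above all others of the series, with no overlap. The log2 fold change was 0.58 ± 0.041 (SE, 1.498-fold, adjusted p = 8.5e-12) against vehicle and 0.63 ± 0.041 (adjusted p = 2.4e-12) against 20 µg/mL. At 100 µg/mL the values were 449, 476 and 477 CPM, inside or just below the vehicle range. SLC16A3, the lactate exporter MCT4, rose by 0.15 ± 0.060 (adjusted p = 0.046) with overlapping libraries, and 8 of 11 other settings ended that call, with 0.09 without vehicle replicate 2 and 0.07 without replicate 2 at 500 µg/mL.

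In upper glycolysis, 3 of 9 members rose and 2 fell against vehicle, and 6 rose and 2 fell against 20 µg/mL. PFKP, the platelet form of phosphofructokinase, had 130, 132 and 129 CPM in vehicle and 185, 187 and 177 CPM with Soshiho-tang at 500 µg/mL, a log2 fold change of 0.50 ± 0.042 (adjusted p = 3.6e-10). The groups were well separated, and of the 20 µg/mL libraries, at 123, 131.7 and 122.5 CPM, 1 lay inside and 2 below the vehicle range. HK2, the inducible hexokinase, had 68.2, 61.6 and 60.5 CPM in vehicle and 78.8, 85.3 and 79.5 CPM at 500 µg/mL, and rose by 0.37 ± 0.046 (adjusted p = 4.1e-07). HK1, the form found in most tissues, did not pass the test against vehicle (0.07 ± 0.035, adjusted p = 0.12). PFKL, the liver form of phosphofructokinase, fell by 0.17 on the log2 scale (SE 0.047, adjusted p = 0.0043), and PFKM, the muscle form, rose by 0.14 ± 0.050 with overlapping libraries (adjusted p = 0.023), a call that 6 of 11 other settings ended, with 0.09 without replicate 2 at 500 µg/mL.

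ALDOC, the brain-type aldolase, moved against the trend of the pathway. Its level was 13.7, 12.7 and 14.8 CPM in vehicle, 10.45, 10.04 and 10.17 CPM with Soshiho-tang at 500 µg/mL, and 14.2, 14.4 and 15.2 CPM at 20 µg/mL. All 3 libraries at 500 µg/mL were below all 6 others. The log2 fold change was -0.42 ± 0.078 (adjusted p = 9.7e-05) against vehicle and -0.52 ± 0.080 (adjusted p = 1.4e-05) against 20 µg/mL. A gene on the opposite strand covers 10.1% of the exon bases of ALDOC. ALDOA, the main aldolase, did not pass the test against vehicle but rose by 0.21 ± 0.039 (adjusted p = 0.00019) against 20 µg/mL, and 42.3% of its exon bases are shared with a gene on the same strand.

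**Figure D2:**
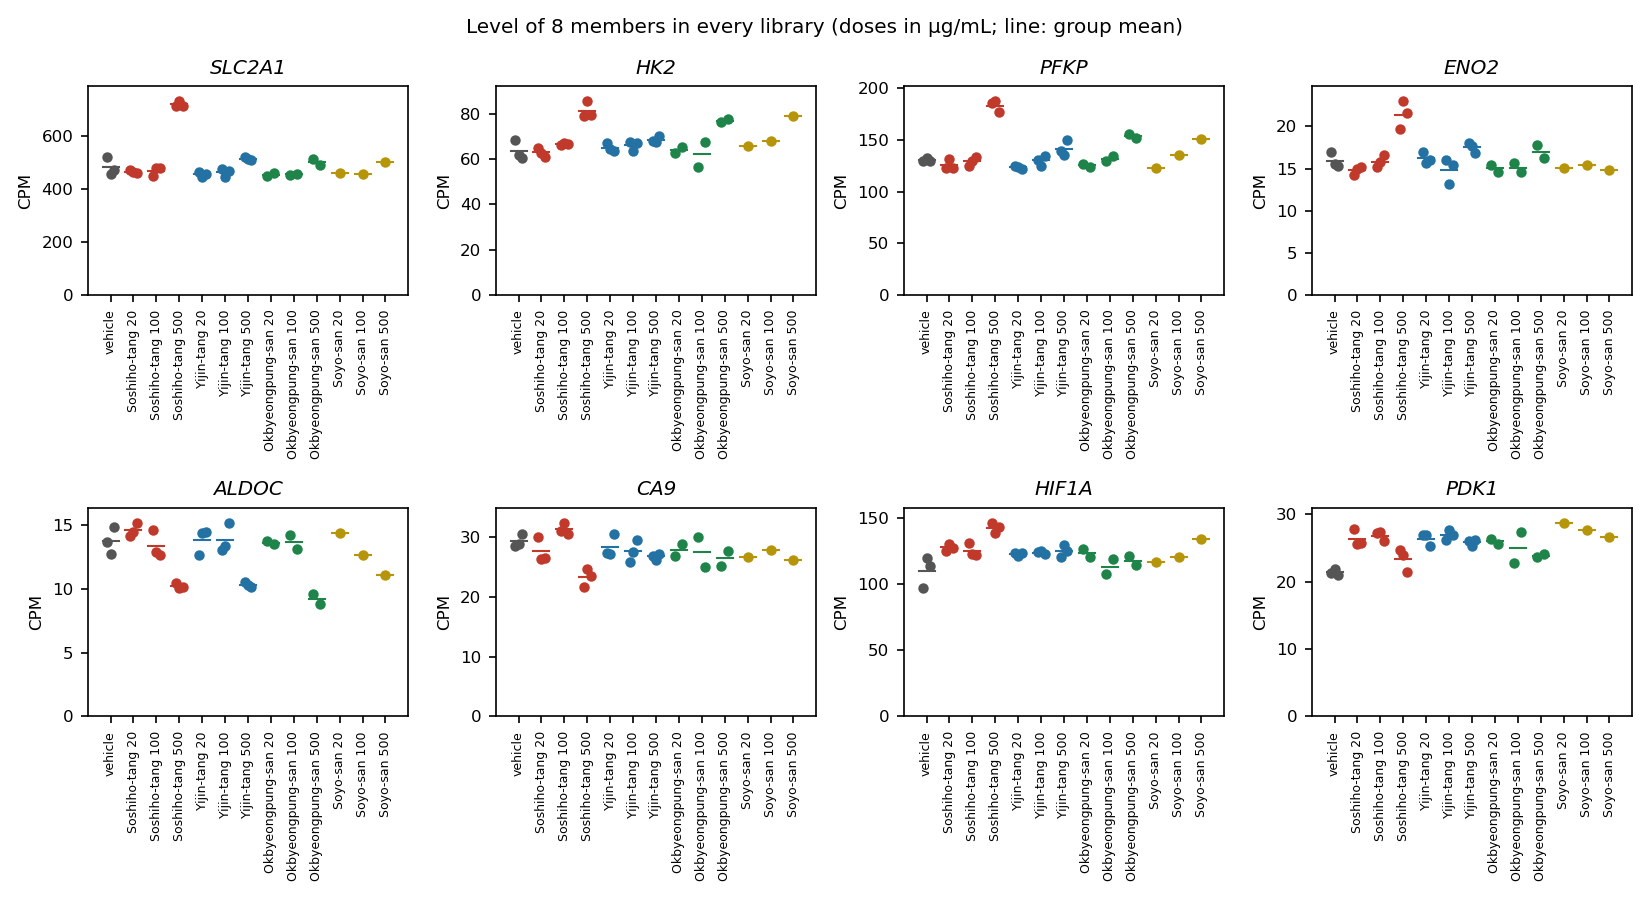
CPM of 8 members on linear axes from 0, in every library of the 13 groups (doses in µg/mL), with a line at the group mean. SLC2A1, PFKP and ENO2 stand highest with Soshiho-tang at 500 µg/mL, ALDOC is low at 500 µg/mL of each formula, and PDK1 has its lowest mean in vehicle.

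The forms of an enzyme were compared per length of exon, merged over all annotated transcripts. That length was 4836 bases for PFKP, 7318 for PFKM and 8926 for PFKL, so the size of a share depends on the annotation. Without division by length, the vehicle means were 130.5 CPM for PFKP, 82.06 for PFKL and 64.06 for PFKM. PFKP made up 60.1% ± 1.28 (SD, n = 3) of the summed CPM per kilobase of PFKL, PFKM and PFKP in vehicle and 68.1% ± 0.741 (n = 3) with Soshiho-tang at 500 µg/mL. The lowest library at 500 µg/mL, 67.7%, was above the highest vehicle library, 61.1%. PFKL went from 20.5% ± 0.656 to 14.6% ± 0.217. HK2 made up 30.5% ± 1.38 of HK1 and HK2 in vehicle and 35.0% ± 0.997 at 500 µg/mL. ALDOC was a small part of the aldolase signal throughout, 1.535% ± 0.0507 in vehicle and 1.10% ± 0.0363 at 500 µg/mL.

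**Figure D3:**
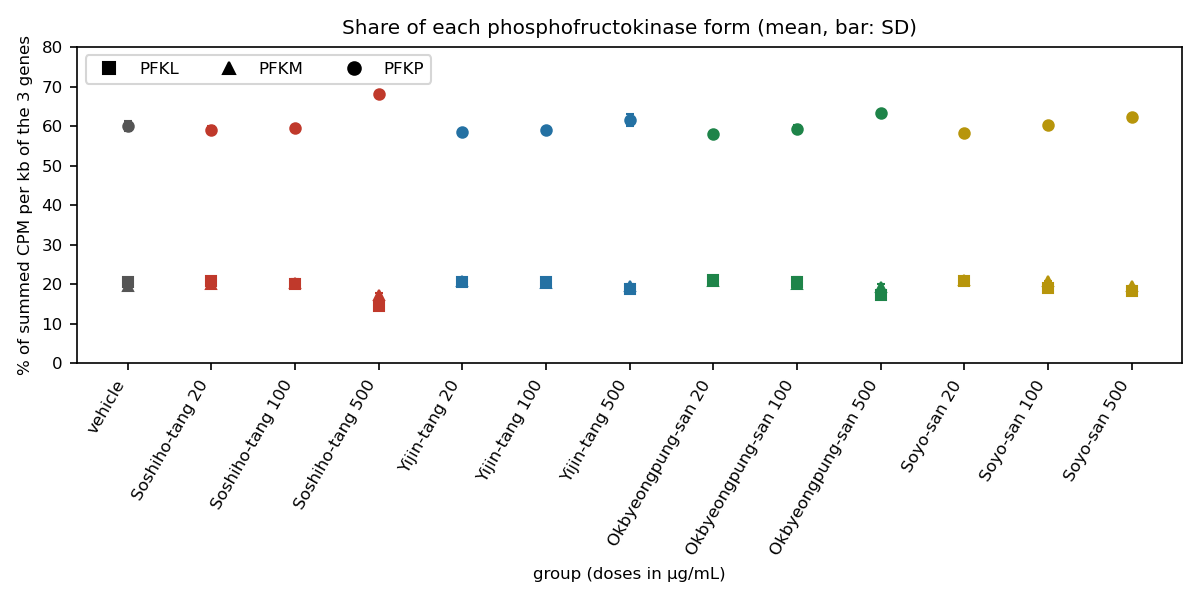
Share of PFKL, PFKM and PFKP in their summed CPM per kilobase of exon (%, axis from 0) by group, with doses in µg/mL. Points are means with SD, with 1 library per dose for Soyo-san, and exon length is merged over all annotated transcripts. PFKP reaches 68.1% with Soshiho-tang at 500 µg/mL and 63.4% with Okbyeongpung-san at 500 µg/mL, against 60.1% in vehicle.

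Of the 7 members of lower glycolysis, 6 rose with Soshiho-tang at 500 µg/mL against vehicle and all 7 rose against 20 µg/mL. ENO2, the neuron-type enolase, had 16.9, 15.5 and 15.3 CPM in vehicle and 19.7, 23.0 and 21.5 CPM at 500 µg/mL, a log2 fold change of 0.44 ± 0.070 (adjusted p = 1.3e-05). ENO1, the main enolase, rose by 0.26 ± 0.049 (adjusted p = 8.3e-05), and neither enolase overlapped with vehicle. PGK1 and PGAM1, which act between GAPDH and enolase, rose by 0.20 ± 0.038 and 0.17 ± 0.039 against vehicle. Against 20 µg/mL PGK1 rose by 0.12 (adjusted p = 0.024). That call was lost without replicate 1 or replicate 2 at 20 µg/mL, and without replicate 2 or replicate 3 at 500 µg/mL.

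LDHA, which reduces pyruvate to lactate, had 874, 975 and 1030 CPM in vehicle and 1091, 1051 and 1084 CPM at 500 µg/mL. Its rise against vehicle was 0.17 ± 0.043 (adjusted p = 0.002), with the lowest treated library just above the highest vehicle library, and it was lost when only these 2 groups were fitted (adjusted p = 0.081). Without vehicle replicate 1 the value was 0.10 (adjusted p = 0.026). Against 20 µg/mL (896, 879 and 884 CPM) it rose by 0.28 ± 0.043 (adjusted p = 1.7e-05). PKM, the pyruvate kinase, rose by 0.12 ± 0.045 (adjusted p = 0.039) against vehicle with overlapping libraries, a call that 7 of 11 other settings ended, and by 0.22 ± 0.045 (adjusted p = 0.00036) against 20 µg/mL. Its value against vehicle was 0.07, 0.05 and 0.18 without vehicle replicate 1, 2 and 3 in turn.

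GAPDH, the glycolytic dehydrogenase often used as a reference gene, passed against 20 µg/mL and not against vehicle. It had 3025, 3089 and 3565 CPM in vehicle, 3300, 3170 and 3302 CPM with Soshiho-tang at 500 µg/mL, and 2735, 2994 and 2731 CPM at 20 µg/mL. The high library is vehicle replicate 3, and the 500 µg/mL libraries lay inside the vehicle range. The log2 fold change was 0.02 ± 0.048 (adjusted p = 0.73) against vehicle and 0.21 ± 0.048 (adjusted p = 0.0017) against 20 µg/mL.

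Among the switch enzymes, PDK1 had its lowest level in vehicle. PDK1 encodes a kinase that inhibits pyruvate dehydrogenase, which turns pyruvate into acetyl-CoA inside mitochondria. It had 21.25, 21.96 and 21 CPM in vehicle, 24.75, 24.01 and 21.5 CPM with Soshiho-tang at 500 µg/mL, and 27.8, 25.7 and 25.8 CPM at 20 µg/mL. All 3 libraries at 20 µg/mL exceeded vehicle, whereas the 500 µg/mL libraries lay between and overlapped with vehicle. It rose against vehicle by 0.34 ± 0.056 at 100 µg/mL (adjusted p = 0.00011) and by 0.31 ± 0.056 at 20 µg/mL (adjusted p = 0.00027), but by 0.14 ± 0.057 at 500 µg/mL (adjusted p = 0.046), a call that 9 of 11 other settings ended, with 0.09 without replicate 1 at 500 µg/mL. Against 20 µg/mL the highest dose was lower by a log2 fold change of -0.17 ± 0.057 (adjusted p = 0.025), which was lost under 4 settings. PFKFB3, which makes the activator of phosphofructokinase, rose against vehicle (0.17 ± 0.056, adjusted p = 0.015), a call that 7 of 11 other settings ended, and PFKFB4 passed in none of the 13 comparisons.

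HIF1A had the most calls of all members, in 8 of 13 comparisons. The gene lies on chromosome 14 (GRCh38, 61695513 to 61748259, plus strand). It had 96.87, 119.5 and 113.5 CPM in vehicle, 146, 138 and 143 CPM with Soshiho-tang at 500 µg/mL, and 125, 131 and 128 CPM at 20 µg/mL. Vehicle replicate 1 was the lowest library, and each Soshiho-tang library lay above the vehicle range. The log2 fold change at 500 µg/mL was 0.39 ± 0.052 (adjusted p = 1.1e-06) against vehicle and 0.155 ± 0.052 (adjusted p = 0.027) against 20 µg/mL. The second call was lost when either of 2 libraries at 500 µg/mL or either of 2 at 20 µg/mL was left out. EGLN3, a hydroxylase gene that is itself a hypoxia target, had 9.68, 9.77 and 9.06 CPM in vehicle and 7.38, 8.16 and 7.42 CPM at 500 µg/mL, and the groups did not overlap. Its log2 fold change against vehicle was -0.30 ± 0.086 (adjusted p = 0.0069). Against 20 µg/mL it was -0.24 (adjusted p = 0.045), a call lost in DESeq2 (adjusted p = 0.13) and when any 20 µg/mL library was left out. That call was also lost without a filter on low counts (adjusted p = 0.11) and with a replicate block (adjusted p = 0.051). Leaving out replicate 1 or replicate 3 at 500 µg/mL ended it too (adjusted p = 0.13 and 0.12). EGLN1, the main oxygen sensor among the hydroxylases, did not pass in any comparison.

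Most of the other hypoxia targets did not pass the test. Of 9 such members, 1 rose and 1 fell with Soshiho-tang at 500 µg/mL against vehicle, and 1 rose and 2 fell against 20 µg/mL. CA9 encodes a carbonic anhydrase at the cell surface that is widely used as a hypoxia marker, and it was the member that fell in both. It had 28.5, 28.8 and 30.6 CPM in vehicle, 31.0, 32.4 and 30.6 CPM at 100 µg/mL, and 21.6, 24.7 and 23.5 CPM at 500 µg/mL. The 500 µg/mL libraries were the lowest, with no overlap, and the log2 fold change against vehicle was -0.32 ± 0.064 (adjusted p = 0.00023). Against 20 µg/mL (30.02, 26.41 and 26.57 CPM) it was -0.25 ± 0.066 (adjusted p = 0.0053), which was lost without replicate 1 at 20 µg/mL. A gene on the opposite strand covers 38.5% of the exon bases of CA9, and the kit was directional but the strand setting of the counting is not given in the sources used here.

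VEGFA, the vascular growth factor, had 69.6, 67.5 and 67.1 CPM in vehicle and 69.5, 67.8 and 70.1 CPM at 500 µg/mL, with overlapping groups and a log2 fold change of 0.03 ± 0.052 (adjusted p = 0.67). BNIP3L, a mitophagy receptor, had 13.0, 14.9 and 15.2 CPM at 20 µg/mL and 11, 11.55 and 11.42 CPM at 500 µg/mL, and fell by 0.35 on the log2 scale (SE 0.078, adjusted p = 0.0012). Against vehicle (11.3, 13.3 and 12.8 CPM) its libraries overlapped and its value was -0.12 ± 0.078 (adjusted p = 0.22). P4HA1, a collagen prolyl hydroxylase subunit, rose by 0.17 ± 0.065 (adjusted p = 0.034) with overlapping libraries, a call that 7 of 11 other settings ended, with 0.09 without vehicle replicate 1. ADM, BNIP3 and ANKRD37 passed in none of the 13 comparisons.

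The core letters bound by the hypoxia-inducible factors, ACGTG or GCGTG, were searched on both strands in the 250 bases before each start in the RefSeq promoter table (GRCh38.p14), where CACGTG counts once on each strand. Of the 34 members, 30 had an entry, with 58 starts between them. The letters ACGTG stood in 37.9% of these windows, beside 18.5% of all 35116 windows, and GCGTG in 32.8%, beside 32.2%. Either motif stood in 60.3% of the members' windows, beside 43.2% of all. Counted by gene, 26 of 30 members had either motif at some start (86.7%), beside 47.4% of 27305 symbols, but members had more listed starts per gene, which favours them in this count. A match is a description of letters, not a site of binding. The windows of HIF1A and GAPDH were taken because these genes had among the most calls, and those of CA9 and ALDOC, the largest falls among the 4 members that fell with Soshiho-tang at 500 µg/mL against vehicle, were chosen after their values were seen. PDK1 and PFKP had as many calls or nearly so, but their first listed start has no match and is not shown, nor has the window of SLC2A1. Later listed starts did hold matches, 2 ACGTG for PDK1, and 1 ACGTG and 3 GCGTG for PFKP. HIF1A is shown over the whole window (chr14:61695263-61695512, plus strand). GAPDH (chr12:6535172-6535200, plus strand), CA9 (chr9:35673898-35673926, plus strand) and ALDOC (chr17:28576907-28576935, minus strand) are shown as 29 bases around the match nearest the start, since these windows overlap annotated exons. All are read 5′ to 3′, with a motif or its reverse complement in capitals.
HIF1A: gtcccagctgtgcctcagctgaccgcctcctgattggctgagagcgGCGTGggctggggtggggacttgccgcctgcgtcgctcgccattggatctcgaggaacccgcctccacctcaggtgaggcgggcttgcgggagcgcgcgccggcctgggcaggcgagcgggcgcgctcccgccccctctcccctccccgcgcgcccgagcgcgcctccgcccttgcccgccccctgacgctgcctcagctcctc
GAPDH: ctctgcggggtcACGTGtcgcagaggagc
CA9: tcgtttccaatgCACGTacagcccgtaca
ALDOC: ccccggaggagtCACGTagctctgcgaca
The HIF1A window held 1 GCGTG, at bases -204 to -200 before the start. The GAPDH window held ACGTG on both strands within a single CACGTG. The CA9 window held 1 ACGTG on the minus strand at bases -18 to -14, and the ALDOC window 3 ACGTG and 2 GCGTG. Rising members such as HK2, LDHA and PGK1 also had ACGTG at a listed start, and EGLN3, which fell, had neither motif, so the letters did not divide members by direction.

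At the lower doses of Soshiho-tang and Yijin-tang PDK1 was higher than in vehicle, and few other members moved. These comparisons all share the 3 vehicle libraries. At 100 µg/mL 3 members rose and 3 fell against vehicle, where 18.2% of all genes were called, 11.1% higher and 7.05% lower. At 20 µg/mL 4 rose and 3 fell, where 16.9% were called, 10.6% higher and 6.34% lower. These shares are near the members' own. HIF1A was higher by 0.20 ± 0.052 and 0.23 ± 0.052. PGK1 rose by 0.15 at 100 µg/mL (adjusted p = 0.0078), a call lost when only this group and vehicle were fitted (adjusted p = 0.18). Its level in each extract library of the series, 503.5 CPM or more, was above the highest vehicle library, 491.9 CPM. GAPDH was lower by log2 fold changes of -0.15 ± 0.048 and -0.18 ± 0.048, and ALDOA by -0.14 ± 0.039 at both doses. TPI1, a triose phosphate isomerase, fell at 20 µg/mL (-0.17 ± 0.041) and PKM at 100 µg/mL (-0.13 ± 0.045), a call that 6 of 11 other settings ended, with -0.07 (adjusted p = 0.26) without vehicle replicate 3 and -0.19 without vehicle replicate 2. BNIP3L (0.23 ± 0.075) and KDM3A, a histone demethylase (0.15 ± 0.053), rose at 20 µg/mL, calls that 7 and 9 of 11 other settings ended. Without vehicle replicate 1, BNIP3L was at 0.14 (adjusted p = 0.22). Without vehicle replicate 1, the call of HIF1A at 100 µg/mL was lost (0.10, adjusted p = 0.069) and its value at 20 µg/mL was 0.13 (adjusted p = 0.014). Fitting only the 2 groups compared ended both calls of HIF1A (adjusted p = 0.16 at 100 µg/mL and 0.12 at 20 µg/mL). That at 100 µg/mL was also lost without replicate 1 of this dose (0.15, adjusted p = 0.071). Without vehicle replicate 3 those of GAPDH were lost at 100 µg/mL (-0.09, adjusted p = 0.17) and at 20 µg/mL (-0.12, adjusted p = 0.057). PDK1 kept its call at both doses in all settings run. With Yijin-tang at 100 µg/mL 3 members were higher than in vehicle and 3 lower, beside 18.4% of all genes called, 11.1% higher and 7.37% lower. At 20 µg/mL 3 were higher and 3 lower, beside 17% called, 10.3% higher and 6.66% lower. PGK1 rose by 0.12 at 100 µg/mL (adjusted p = 0.035), a call lost when any vehicle library was left out. PDK1 was higher by 0.34 ± 0.056 at 100 µg/mL (26.2, 27.8 and 26.9 CPM) and by 0.31 ± 0.056 at 20 µg/mL, and both calls held in all settings run. The calls of HIF1A at these doses, 0.19 ± 0.052 and 0.17 ± 0.052, were lost without vehicle replicate 1, with values of 0.09 (adjusted p = 0.13) and 0.07 (adjusted p = 0.20). Both were also lost when only the groups compared were fitted (adjusted p = 0.18 and 0.24). Leaving out replicate 1 or replicate 2 at 100 µg/mL, or any library at 20 µg/mL, ended the call of that dose too.

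With Yijin-tang at 500 µg/mL ALDOC was lower than in vehicle and than at 20 µg/mL. PDK1 was higher than in vehicle but not than at 20 µg/mL, and the glycolytic enzymes moved little. Against vehicle 4 of 33 members rose and 3 fell, beside 21% of all genes called, 12.7% higher and 8.39% lower. ALDOC had 10.5, 10.26 and 10.12 CPM, below each vehicle library and each library at 20 µg/mL (12.65, 14.36 and 14.47 CPM). The log2 fold change was -0.40 ± 0.078 (adjusted p = 0.00046) against vehicle and -0.42 ± 0.079 (adjusted p = 0.0024) against 20 µg/mL. PDK1 had 26.1, 25.4 and 26.2 CPM, all above vehicle, and rose by 0.29 ± 0.056 (adjusted p = 0.00045). Both vehicle calls held in all settings run. PDK1 was as high at 20 µg/mL (26.9, 26.9 and 25.3 CPM), with a difference between the doses of -0.02 ± 0.055 (adjusted p = 0.94).

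The other calls of Yijin-tang at 500 µg/mL against vehicle were smaller. VEGFA had 61.0, 59.4 and 55.5 CPM, below all vehicle libraries, and fell by 0.20 on the log2 scale (SE 0.052, adjusted p = 0.0064). Fitting only these 2 groups ended that call (adjusted p = 0.053). HIF1A had 120.4, 129.5 and 125 CPM and rose by 0.20 ± 0.052 (adjusted p = 0.0067), with its lowest library just above vehicle. Without vehicle replicate 1 that value was 0.10 (adjusted p = 0.078), and without replicate 2 at 500 µg/mL it was 0.16 (adjusted p = 0.062). Fitting only these 2 groups also ended the call of HIF1A (adjusted p = 0.14). PGK1 had 535.8, 518.5 and 554.5 CPM against 489.6, 487.1 and 491.9 CPM in vehicle, with no overlap, and rose by 0.15 ± 0.038 (adjusted p = 0.0073), a call lost without replicate 3 at 500 µg/mL (0.10, adjusted p = 0.11) and when only these 2 groups were fitted (adjusted p = 0.14). GAPDH had 2919, 2904 and 2923 CPM, below vehicle, with a log2 fold change of -0.13 ± 0.048 (adjusted p = 0.048), and -0.07 (adjusted p = 0.24) without vehicle replicate 3. Leaving out any library at 500 µg/mL, or fitting only these 2 groups (adjusted p = 0.25), also ended the call of GAPDH. PFKP rose by 0.13 ± 0.042 (adjusted p = 0.027), a call that 6 of 11 other settings ended, with 0.07 without replicate 3 at 500 µg/mL. SLC2A1 (518.6, 510.6 and 508.1 CPM), HK2 (67.98, 67.6 and 69.9 CPM), LDHA (927, 938 and 977 CPM) and CA9 (26.9, 26.3 and 27.2 CPM) did not pass against vehicle.

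Against 20 µg/mL of Yijin-tang, 2 members rose and 1 fell, beside 1.86% of all genes called, 0.724% higher and 1.13% lower. PFKP had 138.8, 135.7 and 149.9 CPM at 500 µg/mL and 125, 124 and 122 CPM at 20 µg/mL, and rose by 0.20 ± 0.043 (adjusted p = 0.0081). SLC2A1 rose by 0.18 ± 0.041 (adjusted p = 0.013), from 464, 444 and 453 CPM. Neither overlapped, but leaving out single libraries ended the call of PFKP in 3 cases and that of SLC2A1 in 5. The remaining fall was that of ALDOC.

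**Figure D4:**
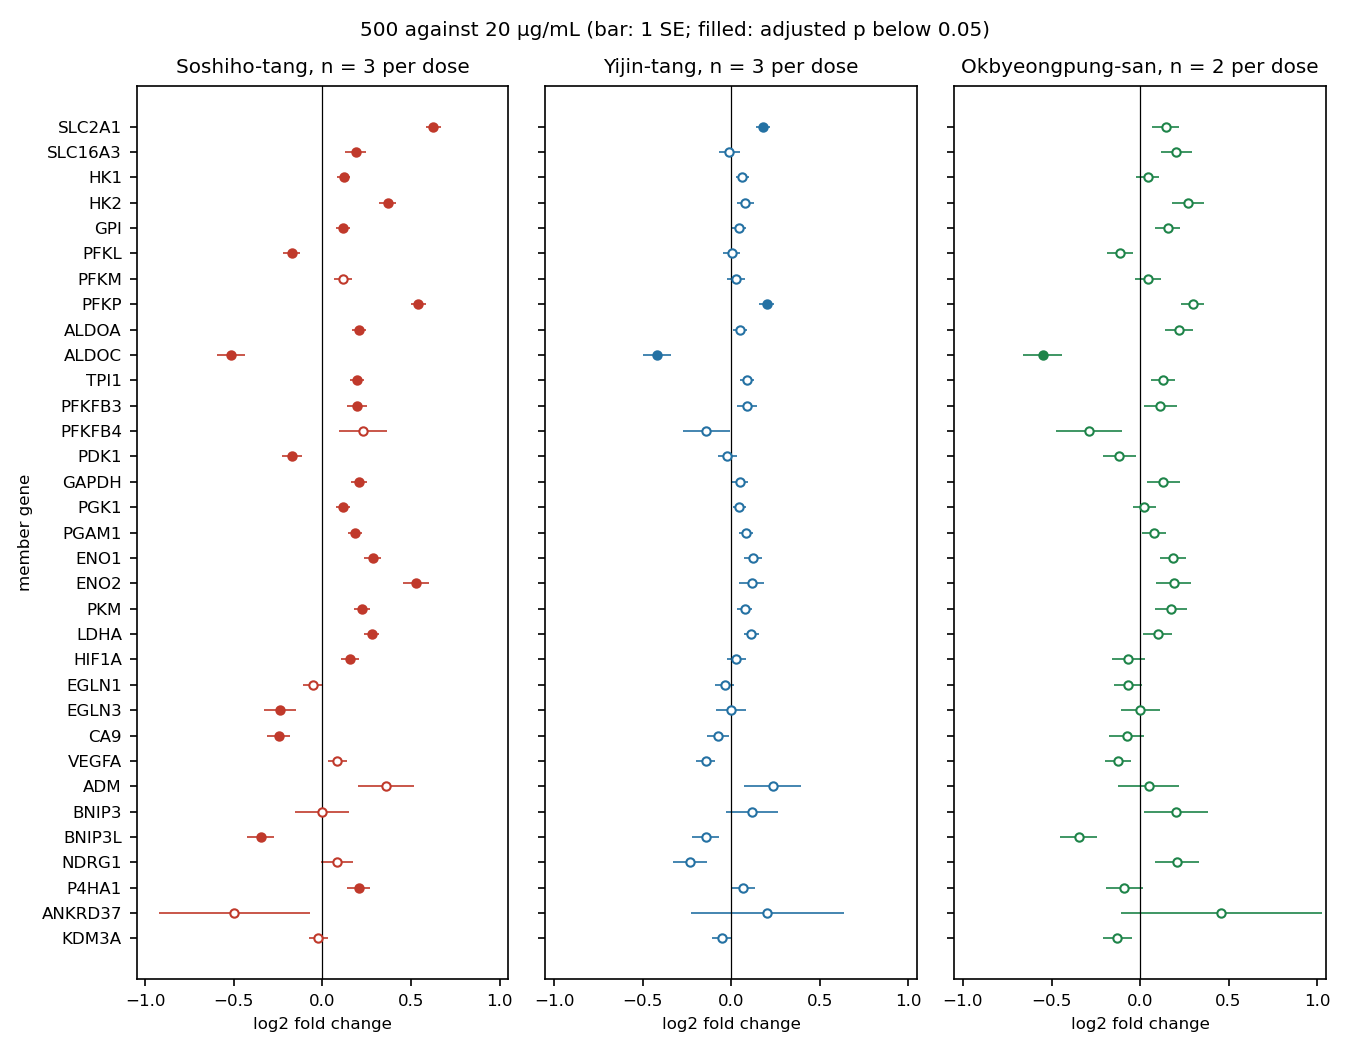
Log2 fold change (x axis, bar: 1 SE) of 33 members (y axis) between 500 and 20 µg/mL of 3 formulas, with filled points at an adjusted p below 0.05. Soshiho-tang has 24 filled points, Yijin-tang 3 and Okbyeongpung-san 1, and ALDOC is filled and below 0 in each panel.

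Set directly against Yijin-tang at 500 µg/mL, Soshiho-tang at 500 µg/mL had 13 members higher and 2 lower, beside 12.9% of all genes called, 6.54% higher and 6.38% lower. SLC2A1 differed by 0.48 ± 0.041 (adjusted p = 1.3e-09) and PFKP by 0.37 ± 0.042 (adjusted p = 3.2e-07), with no overlap between the formulas. NDRG1, a hypoxia-responsive gene linked to differentiation, had 14.3, 14.2 and 16.4 CPM with Soshiho-tang and 11.4, 12.02 and 11.35 CPM with Yijin-tang, a difference of 0.36 ± 0.093 (adjusted p = 0.0082). Neither formula passed for NDRG1 against vehicle (14.12, 12.23 and 14.35 CPM), which overlapped with Soshiho-tang and lay above Yijin-tang. ENO2 (0.29 ± 0.070), HK2 (0.24 ± 0.047) and VEGFA (0.23 ± 0.053) were also higher with Soshiho-tang, and CA9 (-0.21 ± 0.066) and PFKL (-0.14 ± 0.047) were lower, calls that 6 and 8 of 11 other settings ended. ALDOC did not pass, with a difference of -0.02 ± 0.083 (adjusted p = 0.94). Without replicate 1 of either formula, 9 members were called in place of 15.

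With Okbyeongpung-san at 500 µg/mL ALDOC was lower and PFKP higher than in vehicle. These were the only members called against vehicle, beside 4.38% of all 15762 genes tested, 2.19% higher and 2.19% lower. ALDOC had 9.61 and 8.84 CPM, the lowest values of the series, and its log2 fold change was -0.57 ± 0.099 (adjusted p = 0.0086) against vehicle. Against 20 µg/mL (13.7 and 13.5 CPM) it was -0.55 ± 0.11 (adjusted p = 0.043), the single call among the members, beside 0.558% of all genes, 0.247% higher and 0.311% lower. DESeq2 did not call ALDOC here (adjusted p = 0.081) and called PFKP (0.295, adjusted p = 0.018), and leaving out any of the 4 libraries also ended the call of ALDOC. Fitting only the 500 and 20 µg/mL groups called 12 members, 10 higher and 2 lower, beside 938 of 14920 genes. Those higher included PFKP (0.29, adjusted p = 2.3e-05), ALDOA (0.21, adjusted p = 0.0004) and HK2 (0.26, adjusted p = 0.00048). PFKP had 156 and 152 CPM, above all vehicle libraries, and rose against vehicle by 0.24 ± 0.058 (adjusted p = 0.036), a call lost without vehicle replicate 3 (0.23, adjusted p = 0.12). These calls rest on 2 libraries: without either library at 500 µg/mL none of the members passed against vehicle, with values for ALDOC of -0.64 (adjusted p = 0.11) and -0.51 (adjusted p = 0.15). Replicate 2 is labelled batch E and replicate 3 batch D, and the labels do not define a batch. Within batch E, ALDOC differed between 500 and 20 µg/mL by -0.51 and within batch D by -0.60, and PFKP by 0.295 and 0.29.

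Other members with Okbyeongpung-san at 500 µg/mL did not pass against vehicle in the edgeR test, although other settings called HK2, ENO1 and VEGFA. HK2 had 76.3 and 77.4 CPM, above the vehicle range, and a value of 0.28 ± 0.081 (adjusted p = 0.069). It passed without a filter (adjusted p = 0.017), in DESeq2 (adjusted p = 0.05) and without vehicle replicate 1 (0.34, adjusted p = 0.014). ENO1 had a value of 0.22 ± 0.067 (adjusted p = 0.076) and passed in DESeq2 (adjusted p = 0.0077) and without vehicle replicate 1 (0.24, adjusted p = 0.018). VEGFA had 56.5 and 59.0 CPM, below the vehicle range, and a value of -0.235 ± 0.067 (adjusted p = 0.066), and passed without vehicle replicate 1 (-0.22, adjusted p = 0.044). SLC2A1 (511 and 489 CPM), LDHA (942 and 975 CPM), GAPDH (3134 and 3062 CPM) and HIF1A (121 and 114 CPM) overlapped with vehicle. PDK1 (23.7 and 24.1 CPM) lay above and CA9 (25.2 and 27.7 CPM) below the vehicle range. At 100 µg/mL no member was called by edgeR, beside 0.108% of all genes, 0.0444% higher and 0.0634% lower, while 4 had an unadjusted p under 0.05 and DESeq2 called 1. At 20 µg/mL no member was called by edgeR, beside 0.273% of all genes, 0.14% higher and 0.133% lower, while 6 had an unadjusted p under 0.05 and DESeq2 called 0.

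Soyo-san had 1 library per dose, so its values carry no replicate check and no test. At 500 µg/mL, 17 of 33 members lay above the range of the vehicle libraries, 6 below and 10 inside, with a median log2 difference of 0.07. Of all 16885 genes that passed the filter over the whole series, 29.4% lay above and 30.6% below, with a median of -0.01. At 100 µg/mL 9 members lay above and 11 below, beside 27% and 27.9% of all genes. At 20 µg/mL 6 lay above and 12 below, beside 28.9% and 27.4%. PFKP had 151, 135 and 122 CPM at 500, 100 and 20 µg/mL, and ALDOC 11.04, 12.65 and 14.33 CPM. HK2 had 78.8, 67.7 and 65.6 CPM, SLC2A1 500.1, 457 and 460.5 CPM, and PDK1 26.7, 27.7 and 28.7 CPM. Thus PFKP and HK2 were highest and ALDOC lowest at 500 µg/mL, while PDK1 lay above vehicle at each dose. Soyo-san libraries are all labelled batch D and the vehicle libraries batch E, so formula and batch cannot be told apart against vehicle.

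Other genes of these pathways, taken from lists of names and not members, were counted in the same fits. Their shares of calls are read against those of all genes at 500 µg/mL against vehicle, 39.2% for Soshiho-tang, 21% for Yijin-tang and 4.38% for Okbyeongpung-san, and most are near them. Of 30 tested glycolysis neighbours, 10 rose and 3 fell with Soshiho-tang at 500 µg/mL against vehicle, 5 and 2 with Yijin-tang, and 1 and 0 with Okbyeongpung-san. PDK4, a relative of PDK1, was the gene common to the 3: it rose by 0.76 ± 0.091, 0.32 ± 0.094 and 0.82 ± 0.13, from 4.75 ± 0.209 CPM (SD, n = 3) in vehicle. PDK2, the widely expressed relative, fell by 0.42 on the log2 scale (SE 0.059) with Soshiho-tang, and PDP1, the phosphatase opposing these kinases, rose by 0.48 ± 0.060. Of 12 tested hypoxia regulators, 2 rose and 3 fell with Soshiho-tang, 1 and 2 with Yijin-tang, and none passed with Okbyeongpung-san. CITED2, a hypoxia-induced inhibitor of the HIF pathway, fell by 0.46 on the log2 scale (SE 0.095). Of 34 tested further hypoxia-inducible genes, 12 rose and 6 fell with Soshiho-tang, 5 and 2 with Yijin-tang, and 1 and 1 with Okbyeongpung-san. TFRC, the transferrin receptor, rose by 0.56 ± 0.047, 0.26 ± 0.047 and 0.40 ± 0.081. STC1, a secreted glycoprotein, had the largest change with Soshiho-tang but only 0.0334 CPM against 0.351 CPM in vehicle, so no fold is given.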

How the data were processed

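The deposited table holds expected counts, as RSEM gives them, with no scaling between libraries, and 9.52% to 11.5% of a library's values were not whole. The tools listed in the submitters' processing notes are RSEM 1.3.3, STAR 2.7.3a, FastQC 0.11.9 and Trim Galore 0.6.5, the build is GRCh38, and the annotation release is not given in the sources used here. Expected counts divide reads between genes that share sequence, so genes with close copies or overlaps are less certain. A further 30 columns without a name were not used. Symbols came from a table of gene names, which matched 56558 of 60675 identifiers, with positions and exon lengths from GENCODE release 29 (GRCh38).

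Counts were rounded and analysed in R 4.3.3 with edgeR 4.0.16 (filterByExpr, TMM scaling, robust quasi-likelihood F-test), with p-values adjusted by the Benjamini-Hochberg method over all genes of a comparison and calls at an adjusted p below 0.05. Vehicle, Soshiho-tang and Yijin-tang shared a fit of 21 libraries and 15882 genes, and vehicle and Okbyeongpung-san one of 9 libraries and 15762 genes. The fitting functions were tested on simulated data with the same spread per gene in all groups. That simulation did not cover the wider spread of the vehicle libraries, or changes as small as those of most members. Adjusted p-values in all parts are from this edgeR test unless DESeq2 is named. The SE is derived from the F statistic, and CPM are scaled by TMM. Alternatives were DESeq2 1.42.0, RLE size factors, no filter, only the groups compared, a replicate block, and each library left out in turn. Members, lists and motifs were chosen with earlier results of these data known. Given in full are the called members with the largest changes (up to 8 for Soshiho-tang at 500 µg/mL against vehicle, up to 6 in the other comparisons of that dose) and always HIF1A, GAPDH, SLC2A1, HK2, LDHA, PDK1, CA9 and VEGFA. Soyo-san log2 differences are of log2 CPM with a prior count of 2 against the vehicle mean.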

Additional observations from a re-analysis of the deposited data

Results flagged for a closer look

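The responses to Soshiho-tang and Yijin-tang at 500 µg/mL differed for 15 members, by the edgeR test of one formula against the other, which is the difference between their effects against the shared vehicle. Among the transporters and upper enzymes the log2 difference (Soshiho-tang minus Yijin-tang) was 0.481 for SLC2A1, 0.198 for SLC16A3, 0.243 for HK2, -0.142 for PFKL, 0.367 for PFKP and 0.164 for ALDOA. In lower glycolysis it was 0.156 for GAPDH, 0.145 for ENO1, 0.287 for ENO2, 0.165 for PKM and 0.179 for LDHA. For HIF1A it was 0.187, for CA9 -0.206, for VEGFA 0.233 and for NDRG1 0.364. Of these 15 calls, 6 held in all settings run: SLC2A1, HK2, PFKP, ALDOA, LDHA and VEGFA.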

How the results depend on the processing

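Of 96 calls of members over the comparisons, 39 held in all settings run, 57 were lost in some and 0 changed direction. With Soshiho-tang at 500 µg/mL, 12 of 19 calls against vehicle and 14 of 24 against 20 µg/mL held in all. Fitting only the groups compared gave 12 called members in place of 19 for Soshiho-tang at 500 µg/mL against vehicle, and 1 in place of 6 and 1 in place of 7 at 100 and 20 µg/mL. For Yijin-tang against vehicle it gave 2 in place of 7, 1 in place of 6 and 1 in place of 6 at the 3 doses, and 6 in place of 3 between 500 and 20 µg/mL. For Okbyeongpung-san at 500 µg/mL it gave 1 in place of 2 against vehicle and 12 in place of 1 against 20 µg/mL. DESeq2 called 4 members for Okbyeongpung-san at 500 µg/mL against vehicle and 1 at 100 µg/mL, where the fit without a filter on low counts also called 1. Deviations of same-numbered libraries from their group means correlated at -0.07 to 0.06. With 2 or 3 libraries per group these values cannot exclude a pairing by replicate number. A replicate block gave 4 in place of 2 calls for Okbyeongpung-san at 500 µg/mL against vehicle, adding HK2 (0.34, adjusted p = 0.018) and ENO1 (0.24, adjusted p = 0.041), and 2 in place of 1 against 20 µg/mL. Leaving out single libraries gave 4 to 8 called members for Soshiho-tang at 20 µg/mL, 4 to 9 for Yijin-tang at 500 µg/mL and 3 to 9 at 20 µg/mL against vehicle. It gave 1 to 3 between the Yijin-tang doses, 9 to 12 between the formulas, and 0 to 5 for Okbyeongpung-san at 500 µg/mL and 0 to 1 at 100 µg/mL against vehicle. Between the Okbyeongpung-san doses it gave 0 in each case. Between libraries of a group, chi-square per degree of freedom was 20.6, 20.15 and 11.21 for the vehicle pairs. For the Soshiho-tang and Yijin-tang pairs it was 2.41 to 7.02. The fit shared by these groups uses a common spread per gene. Its adjusted p-values against vehicle thus rest on less spread than the vehicle libraries showed. The cause of the shifts in calls was not tested.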
